A study of Populus ussuriensis with 18 samples.

Results

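A set of 70 transcripts of *Populus ussuriensis* roots stood higher after 6 h in polyethylene glycol (PEG) than at 0 h and near the 0 h level at each of the 4 later times sampled. They were selected on their measured levels among 12994 transcripts. A transcript was taken when it was at least 400 bases long and reached 1 FPKM in 3 or more libraries, when its mean log2(FPKM + 1) at 6 h exceeded that at 0 h by at least 1, and when it differed from 0 h by less than 0.5 in size at each of 12, 24, 48 or 120 h. FPKM is the fragment number of a transcript relative to its length and to the total mapped in its library. The length and level minimum left 11404 transcripts, of which 812 were at least 1 higher at 6 h and 70 met the whole rule. Because the rule used the mean of every time, the levels of these 70 members are given as a description, with no test.

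Wild type seedlings, 3 weeks old and grown from cut stems in tissue culture, were moved to liquid medium with 6% PEG, a polymer that holds back water from roots, and whole roots were taken at 0 h or after 6, 12, 24, 48 or 120 h in it. Each time had 3 biological replicates, giving 18 RNA libraries, and each replicate pooled several seedlings, so spread is a spread between pools. All times are set against the same 3 libraries of 0 h. No library of seedlings kept in liquid medium without PEG was analysed here, so the move to liquid and the PEG cannot be told apart. In whole roots, fewer cells of a type and less RNA per cell cannot be told apart either.

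Heat shock proteins carry much of what can be named in this set. HSP70 and HSP90 proteins are chaperones that use ATP to fold, refold and move other proteins, and plants hold separate forms in the cytosol, the endoplasmic reticulum, mitochondria and chloroplasts. Small heat shock proteins keep unfolding proteins from clumping until HSP70 takes them over. Transcripts of all these classes are known to rise in plants under heat and, for some, under water loss. Dehydrins and other late embryogenesis abundant (LEA) proteins are soluble, mostly unfolded proteins known from drying seeds and stressed tissue.

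Of the 70 members, 24 had an entry in the annotation at hand and 18 had a protein name, 9 of them in heat shock protein families. The remaining 46 had no entry and are known here only by the ID of their PacBio transcript. All 24 annotated members came from tables of transcripts that the study had called as changed on these samples, so the names say nothing of how common a protein class is. The change at 6 h ran from 1.00 to 1.91 over the members, with a median of 1.16, beside a median of 0.01 over the 11404 transcripts. In the 9 heat shock members it had a median of 1.36, and in the 52 members without a protein name a median of 1.13. The summed level of all members was 12172 to 12991 FPKM at 6 h, against 5085 to 5204 FPKM at 0 h. That sum made up 1.13 to 1.17% of a 6 h library and 0.464 to 0.474% of a 0 h library.

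**Figure D1:**
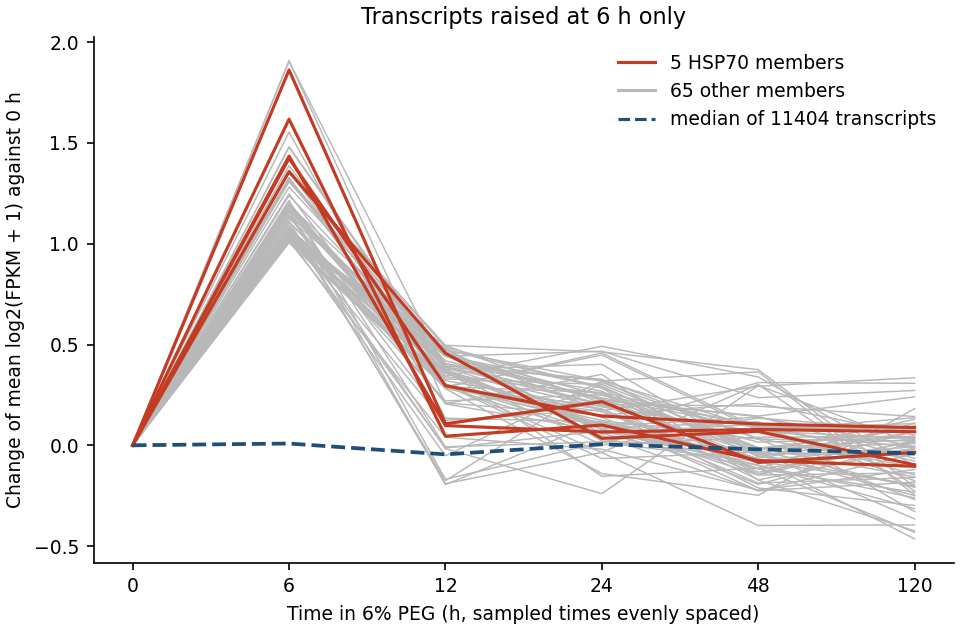
Change of each member from 0 h, as the difference of mean log2(FPKM + 1) over 3 libraries, at the sampled times (evenly spaced on the axis, in hours). Red lines are the 5 HSP70 members, grey lines the 65 others and the dashed line the median of the 11404 transcripts that pass the minimum; all members lie between 1.00 and 1.91 at 6 h and within 0.5 of 0 afterwards, as the rule sets.

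Heat shock cognate 70 kDa transcripts were the largest named group, with 5 members. Proteins of this name are the HSP70 form of the cytosol and nucleus and are made in unstressed cells too. By their best match in *Populus trichocarpa*, these 5 transcripts belong to 3 genes, so several of them may share reads and are not separate observations. Their summed level was 3165 ± 88.0 FPKM at 6 h, against 1072 ± 25.1 FPKM at 0 h (SD, n = 3 each). The sum was 1202 ± 48.4 FPKM at 12 h, and the times after it had 1171 ± 40.2, 1096 ± 13.9 and 1091 ± 26.5 FPKM. The 3 libraries of 6 h lay between 3081 and 3256 FPKM and the 15 others between 1044 and 1238 FPKM, with no overlap.

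Transcript f2p60_1109_28839, a heat shock cognate 70 kDa protein 1 of 1109 bases matched to POPTR_0010s21270g, had the largest change of all named members. It stood at 995, 805 and 803 FPKM at 6 h, against 257, 218 and 237 FPKM at 0 h. In the 12 libraries of the later times it lay between 199 and 315 FPKM with a median of 249. The first replicate of 6 h was the highest, and every library of 6 h exceeded all 15 others by far. Its change was 1.86 at 6 h, or 3.66 times the mean FPKM of 0 h, and 0.11 at 12 h.

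The other transcript matched to POPTR_0010s21270g, f2p48_2373_20709, is 2373 bases long and is named heat shock cognate 70 kDa protein 2. It had 768, 834 and 876 FPKM at 6 h, against 277, 339 and 307 FPKM at 0 h, and between 316 and 411 FPKM with a median of 340.3 at the later times. Here the first replicate of 6 h was the lowest, so the order of the replicates differed between these 2 transcripts of 1 matched gene. Its change of 1.42 at 6 h was followed by 0.30 at 12 h and 0.15 at 24 h.

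POPTR_0008s05480g was the match of another pair. The longer transcript of that pair, f2p60_2370_3064 of 2370 bases, was at 967, 963 and 984 FPKM at 6 h, against 342, 372 and 363 FPKM at 0 h, the highest level among the HSP70 members. Its 12 later libraries lay between 356 and 399 FPKM with a median of 379.9, and its replicates were among the closest of the set. The shorter one, f4p60_436_16261 of 436 bases, was at 435, 388 and 407 FPKM at 6 h, against 135, 128 and 135 FPKM at 0 h. Their changes at 6 h were 1.43 for the longer and 1.62 for the shorter transcript, and at 12 h 0.10 and 0.05 in the same order.

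The fifth HSP70 member, f2p38_2270_20996, matched to POPTR_0008s05410g, was much less abundant in these length-scaled units than the longer transcript of that pair. It stood at 92.02, 91.6 and 89.9 FPKM at 6 h, against 33.2, 36.04 and 35.8 FPKM at 0 h. It also kept the most at 12 h, with 49.4, 49.2 and 46.5 FPKM there and a change of 0.46, after 1.36 at 6 h. All 3 libraries of 12 h were thus above all 3 of 0 h, and from 24 h on its means were 35.8, 36.98 and 32.6 FPKM.

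**Figure D2:**
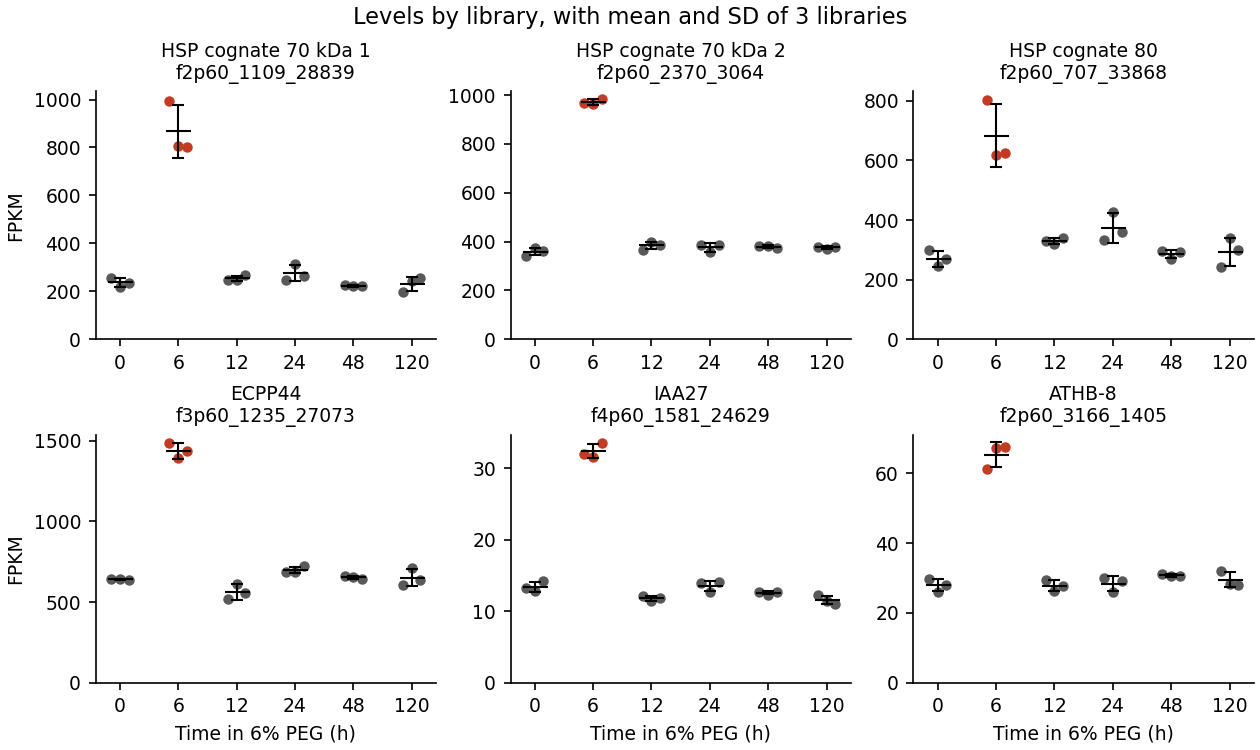
FPKM of 6 named members in each library by time in PEG (h), with 1 point per library (red at 6 h, grey at other times), the mean as a dash and the SD of 3 libraries as bars. In all 6 panels the 3 points of 6 h lie above every other point, and for the heat shock cognate 70 kDa protein 2 transcript f2p60_2370_3064 they are 963 to 984 FPKM.

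The rest of the HSP70 list held 11 transcripts that are no members, 9 of them from tables of transcripts called on these samples, so their directions are not independent evidence. With limma, at an adjusted p under 0.05 and a change of at least 1, 8 of the 11 rose at 6 h and none fell. The same counts for 12 h were 5 and 1. Over all 12080 transcripts tested, 7.00% were called higher and 5.34% lower at 6 h, and 5.73% higher and 3.59% lower at 12 h. The median change of the 11 was 1.36 at 6 h and 0.73 at 12 h, beside medians of 0.01 and -0.04 over all transcripts tested. All 5 transcripts for the endoplasmic reticulum form, named luminal-binding protein 5 or heat shock 70 kDa protein 17, rose at 6 h and 4 of them also at 12 h. Luminal-binding protein 5 (f2p20_2641_20032) averaged 306 FPKM at 6 h and 75.3 FPKM at 0 h, with a limma change of 2.01 (SE 0.08, adjusted p = 2.6e-11), and it still averaged 209 FPKM at 12 h. Of the 5 mitochondrial transcripts 3 rose at 6 h and 1 at 12 h. One of these, f2p60_626_34875, missed the set narrowly, with a change of 1.11 at 6 h and 0.51 at 12 h. The remaining transcript went the other way. Named probable mediator of RNA polymerase II transcription subunit 37c (f2p60_2197_21266), it changed by -0.88 at 6 h, not called, and by -1.03 at 12 h, called lower. Set directly against 12 h, none of the 11 was called at 6 h, where 1.64% of all transcripts were called higher and 2.49% lower. The rule had taken out transcripts that rose at 6 h and were near 0 h at 12 h, so nothing is read from that count. For luminal-binding protein 5 (f2p20_2641_20032) the difference between 6 h and 12 h was 0.55 (SE 0.08, adjusted p = 7.2e-05), below the fold minimum. The member f2p60_1109_28839, chosen for such a difference, was 1.76 higher at 6 h than at 12 h.

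HSP90 was represented by 2 members. Heat shock cognate protein 80 (f2p60_707_33868), named after a cytosolic HSP90 of tomato, was at 804, 619 and 626 FPKM at 6 h, against 299, 244 and 268 FPKM at 0 h. Its later libraries lay between 243 and 428 FPKM with a median of 324, and the highest of them, a library of 24 h, was well below the lowest of 6 h. A change of 1.33 at 6 h was followed by 0.29 and 0.46 at the next 2 times. Mitochondrial heat shock protein 90-6 (f2p19_857_31724) was at 122, 122 and 112 FPKM at 6 h, against 59.3, 52.9 and 62.4 FPKM at 0 h. With 83.5, 82.4 and 80.9 FPKM at 12 h it had a change of 0.50 there, close to the limit of 0.5, and its 6 h change of 1.02 was close to the other limit. Both further transcripts of the HSP90 list, again from tables of transcripts called on these samples, rose at 6 h, as did 7.00% of all transcripts tested, and neither was called at 12 h. These were heat shock protein 90-1 (f2p60_634_34897), at 47.7 FPKM at 6 h and 17.4 FPKM at 0 h with a limma change of 1.41 (SE 0.23, adjusted p = 8.1e-05), and the endoplasmin homolog of the endoplasmic reticulum (f15p60_2882_19544), with a limma change of 1.14 (SE 0.08, adjusted p = 6.4e-09).

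Both small heat shock proteins among the members matched 1 gene, POPTR_0009s04410g, and were named 18.2 kDa and 17.5 kDa class I heat shock protein. The 18.2 kDa transcript (f2p60_864_31641) had 161, 162 and 165 FPKM at 6 h, against 76.6, 75.8 and 78.5 FPKM at 0 h. Its 3 values at 6 h were among the tightest of the set, and its later libraries lay between 57.2 and 106 FPKM with a median of 88.1. The 17.5 kDa transcript (f2p60_805_32419) had 162, 153 and 160.1 FPKM at 6 h, against 74.96, 72.9 and 83.04 FPKM at 0 h. Over the 18 libraries these transcripts followed each other with r = 0.98, and since they match the same gene they may share reads. Their changes were 1.07 and 1.03 at 6 h and 0.39 and 0.33 at 12 h.

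The 9 other small heat shock proteins, all from tables of transcripts called on these samples, had lower mean levels at 0 h than both members, and 8 of them had larger changes at 6 h. By limma 8 of them rose at 6 h and all 9 at 12 h, beside 7.00% and 5.73% of all transcripts tested. None of the 9 was called between 6 h and 12 h. For the 8 of class I, II and IV the change ran from 1.13 to 2.77 at 6 h and from 1.29 to 3.09 at 12 h. In none of these 8 was the change at 6 h the larger one. In both members it was larger because the rule sets it so, and nothing is read from that contrast. The 17.3 kDa class I transcript (f3p60_787_32671), for example, averaged 47.1 FPKM at 6 h and 6.02 FPKM at 0 h, with a limma change of 2.77 (SE 0.38, adjusted p = 1.8e-05), and 58.4 FPKM at 12 h. None of the 7 transcripts listed as DnaJ proteins, the partners that hand substrates to HSP70, was a member. Whether the 46 members without annotation hold others is unknown. Among the 7 listed, 6 of them from those tables, 2 rose and 2 fell at 6 h, beside the 7.00% and 5.34% of all transcripts tested.

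**Figure D3:**
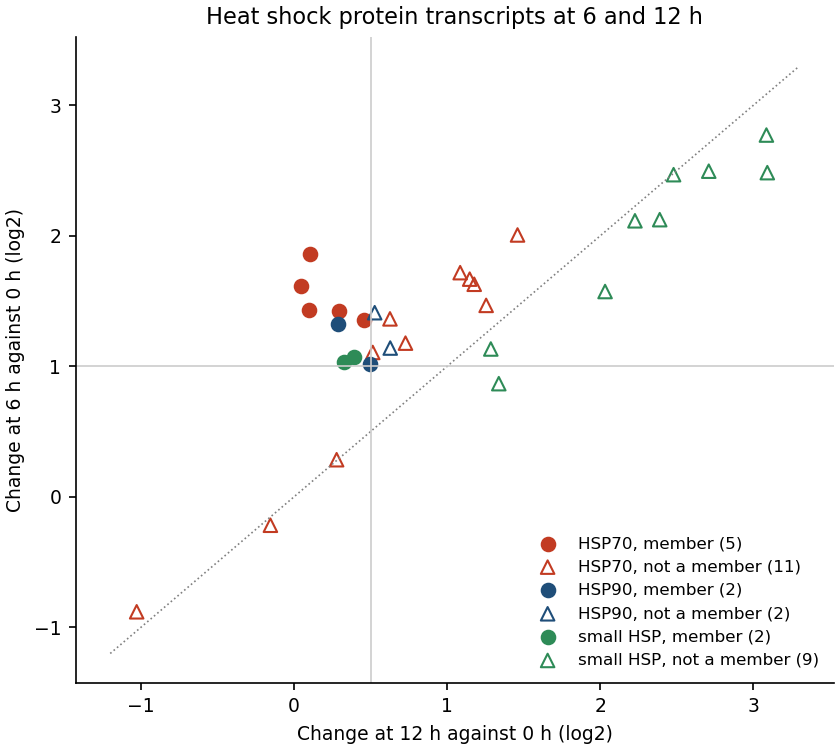
Change at 6 h against change at 12 h, both as log2 differences from 0 h, for the HSP70, HSP90 and small HSP lists (red, blue and green), with filled circles for members and open triangles for other transcripts. Grey lines mark the limits of 1 and 0.5 and the dotted line equal change; members sit left of 0.5 by the rule, and all 9 small HSP that are no members lie on or below the dotted line, at 12 h changes of 1.29 to 3.09.

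A dehydrin was the most abundant member. Phosphoprotein ECPP44 (f3p60_1235_27073), named after a carrot protein and carrying a dehydrin domain, was at 1488, 1391 and 1435 FPKM at 6 h, against 641, 644 and 639 FPKM at 0 h. It was one of the few members below the 0 h level at 12 h, with 516, 613 and 554 FPKM and a change of -0.20, after 1.16 at 6 h. From 24 h on its libraries lay between 609 and 721 FPKM, around the 0 h level. Protein SENESCENCE-ASSOCIATED GENE 21 (f4p60_925_30958), a mitochondrial LEA protein, was at 98.4, 87.2 and 96.7 FPKM at 6 h, against 45.7, 42.3 and 49.03 FPKM at 0 h. It was back at 45.7, 40.7 and 45.6 FPKM at 12 h, and its later libraries varied more than those of most members, between 32.4 and 70.1 FPKM with a median of 47.6.

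The list of dehydrins and LEA proteins had 13 other transcripts, all from tables of transcripts called on these samples. At 6 h limma called 6 of them higher and 5 lower, and at 12 h 6 higher and 4 lower. These counts include NDR1/HIN1-like proteins 6, 10 and 13, which entered the list through their annotation text. At 6 h protein 6 was called higher, with a change of 1.24, protein 13 lower, with -1.03, and protein 10 was not called. Over all transcripts tested, 7.00% were called higher and 5.34% lower at 6 h, and 5.73% higher and 3.59% lower at 12 h. Set directly against 12 h, 3 of the 13 were higher at 6 h and 2 lower, beside 1.64% and 2.49% of all transcripts tested. The largest rise was that of protein SRC1 (f2p60_1369_7946), at 46.2 FPKM at 6 h and 3.86 FPKM at 0 h, with a limma change of 3.28 (SE 0.33, adjusted p = 8.5e-07). Next by size of change were falls of late embryogenesis abundant protein Lea5. Transcript f3p60_781_32678 averaged 633 FPKM at 6 h and 2883 FPKM at 0 h, with a limma change of -2.19 (SE 0.14, adjusted p = 5.5e-09). Transcript f29p60_719_13862 averaged 1398 and 5451 FPKM in the same order, with a limma change of -1.96 (SE 0.14, adjusted p = 1.9e-08).

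Transcription regulators made up another group of named members. Auxin-responsive protein IAA27 (f4p60_1581_24629) belongs to the AUX/IAA repressors, which are broken down when auxin is bound by its receptor and which hold auxin response factors in check until then. It stood at 32.02, 31.6 and 33.5 FPKM at 6 h, against 13.2, 12.8 and 14.2 FPKM at 0 h. At 12 h it had 12.1, 11.4 and 11.8 FPKM, all below the lowest library of 0 h, so that a change of 1.22 at 6 h was followed by one of -0.17 at 12 h. The other 2 AUX/IAA transcripts of the list, IAA14 and IAA13, come from tables of transcripts called on these samples and were not called higher at 6 h. IAA14 (f2p60_1260_27281) fell, with a limma change of -1.42 (SE 0.16, adjusted p = 2.6e-06) at 6 h, and IAA13 (f2p60_795_32509) had a change of -0.63 at 6 h that was not called. Both fell at 12 h, as did 3.59% of all transcripts tested.

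Homeobox-leucine zipper protein ATHB-8 (f2p60_3166_1405), known in *Arabidopsis thaliana* from cells that form vascular tissue, was at 61.2, 67.2 and 67.5 FPKM at 6 h, against 29.7, 26.1 and 28.1 FPKM at 0 h. The return was complete at the next time, with 29.4, 26.2 and 27.6 FPKM at 12 h, and the 12 later libraries lay between 25.9 and 31.99 FPKM with a median of 29.3. Its changes were 1.196 at 6 h and -0.01 at 12 h. Of the 3 other homeobox-leucine zipper transcripts, also from those tables, 1 rose at 6 h, as did 7.00% of all transcripts tested. That transcript was ATHB-7 (f2p60_1403_7712), known in *A. thaliana* to respond to abscisic acid and water loss. It had means of 5.15, 11.9 and 27.8 FPKM at 0, 6 and 12 h, and was called lower at 6 h than at 12 h, with a difference of -1.16 (SE 0.17, adjusted p = 6.2e-05) in limma.

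Transcription factor bHLH68 (f2p60_1567_24745) was at 188, 195 and 185 FPKM at 6 h, against 91.1, 75.99 and 80.95 FPKM at 0 h. It stayed somewhat higher than most members later, with means of 114 FPKM at 12 h and 104 FPKM at 120 h and positive changes at all 4 later times. Transcription factor MYB4 (f2p60_1066_29362), which in *A. thaliana* represses genes of phenylpropanoid synthesis, was barely measured outside 6 h. Only its libraries of 6 h reached 1 FPKM, so it met the level minimum through the time at which it is high. It had 1.26, 2.04 and 1.73 FPKM at 6 h, against 0.07, 0.08 and 0.07 FPKM at 0 h, and 2 of the 3 libraries of 120 h are listed at 0. At such levels the change depends on the pseudocount, and it was 1.31 with 1 FPKM added and 3.33 with 0.1 FPKM added.

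No member carried a NAC name, although 1 NAC transcript came close. NAC domain-containing protein 2 (f7p60_1432_25632) had means of 54.9, 172 and 58.9 FPKM at 0, 6 and 12 h. Its limma change at 6 h was 1.63 (SE 0.06, adjusted p = 7.6e-12), and a later change of -0.59, measured at 120 h, kept it out. Of the 10 NAC transcripts listed, all from tables of transcripts called on these samples, 3 rose and 5 fell at 6 h, where 7.00% of all transcripts tested were called higher and 5.34% lower. The largest changes were falls from low levels. NAC domain-containing protein 35 (f2p60_1228_9087) averaged 4.22 FPKM at 0 h and 0.50 FPKM at 6 h, a change of -1.78. NAC domain-containing protein 90 (f6p60_949_11466) averaged 4.98 and 0.91 FPKM in that order, a change of -1.66.

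Enzymes among the named members acted in different pathways. Glutathione S-transferase U22 (f2p60_977_11315), of the plant tau class that couples glutathione to reactive compounds, was at 22.3, 35.5 and 24.9 FPKM at 6 h, against 13.1, 8.26 and 8.43 FPKM at 0 h. Its 6 h libraries spread more than those of the chaperones, and its change of 1.39 at 6 h was followed by 0.34, 0.49 and 0.34 at 12, 24 and 48 h. Among the 19 other glutathione S-transferases, all from tables of transcripts called on these samples, limma called 12 higher and 2 lower at 6 h. At 12 h it called 9 higher and none lower. Over all transcripts tested, 7.00% were called higher and 5.34% lower at 6 h, and 5.73% higher and 3.59% lower at 12 h. Probable aldo-keto reductase 6 (f2p60_443_37121), of a family that reduces aldehydes and ketones, had 35.5, 40.6 and 40.7 FPKM at 6 h, against 16.6, 15.8 and 16.6 FPKM at 0 h. Probable protein arginine N-methyltransferase 3 (f2p23_2302_3270), whose homologue in yeast and mammals methylates a protein of the small ribosomal subunit, had 20.2, 21.2 and 21.8 FPKM at 6 h, against 8.81, 8.79 and 8.37 FPKM at 0 h. Its replicates were close at every time, and the change was 1.19 at 6 h and 0.29 at 12 h. Plasma membrane ATPase 4 (f3p60_597_35488), a proton pump, was no member. It rose by 1.36 (SE 0.29, adjusted p = 9.2e-04) at 6 h in limma, was not called at 12 h and had a change of 0.74 at 24 h. A more abundant transcript of the same name, f2p9_3515_18575, averaged 422 FPKM at 0 h and went the other way. Its changes were -0.65 at 6 h and -0.999 at 12 h, neither called, and -1.09 at 24 h, which was called.

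The largest changes of the whole set belonged to members without annotation. Transcript f2p60_633_14627, of 633 bases, was at 244, 222 and 229 FPKM at 6 h, against 58.1, 63.2 and 61.6 FPKM at 0 h. Its later libraries lay between 45.6 and 89.6 FPKM with a median of 58.9, and its change at 6 h was 1.91, or 3.80 times the 0 h mean. Transcript f2p26_4002_187, the longest member at 4002 bases, changed by the same 1.91 from a low level, with 5.40, 5.76 and 6.05 FPKM at 6 h, against 0.79, 0.76 and 0.84 FPKM at 0 h. With 0.1 FPKM added in place of 1, the change of f2p26_4002_187 was 2.70. Another unannotated member, f3p60_747_13691, had 836, 743 and 734 FPKM at 6 h, against 289.6, 248 and 249 FPKM at 0 h. The second highest mean belonged to f3p60_545_15598, with 1259, 1076 and 1150.5 FPKM at 6 h, against 546, 555 and 553 FPKM at 0 h and a change of 1.07.

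Transcript f3p60_747_13691 was also the one most like the leading HSP70 member. Across 18 libraries its log2 levels had a Pearson r of 0.994 with those of f2p60_1109_28839, a description that both owe in part to the rule. Next came the HSP70 member f4p60_436_16261 with r = 0.985 and f3p60_1225_27651 with r = 0.971. The last is no member, since its change at 6 h was 0.59, and it too has no annotation here.

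An annotation without a protein name was found for 6 members. Of these, f3p22_951_11713 had the largest change, 1.36 at 6 h, with 42.2, 40.7 and 45.8 FPKM at 6 h, against 14.2, 16.4 and 17.6 FPKM at 0 h. Transcript f4p60_1127_9962, which carries a domain first described in cotton fibre proteins, had 88.3, 93.5 and 90.4 FPKM at 6 h, against 39.01, 34.9 and 39.1 FPKM at 0 h and was under its 0 h level at the last time, with 29.4, 26.2 and 27.7 FPKM. Transcript f2p60_834_12773 was matched to a *Populus euphratica* UBP1-associated protein 1C, a name given to RNA-binding proteins, and had 32.5, 43.4 and 33.9 FPKM at 6 h, against 15.99, 15.97 and 14.6 FPKM at 0 h.

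Members differed in how fully they returned. At 12 h the members kept a median of 27.5% of their 6 h change on the log2 scale, between -17.1% and 48.8%. The median changes for 12, 24, 48 or 120 h were 0.32, 0.17, -0.02 and -0.02, beside -0.05, 0.01, -0.02 and -0.04 over all 11404 transcripts. Of the 70 members 62 lay above 0 h at 12 h, then 63, 32 and 30 at the times that followed. Scaled by median ratios the last count was 37, and scaled to a common sum it was 22. Over the 11404 transcripts 45.8% were above 0 h at 12 h and 50.5% at 24 h. Over the 742 transcripts raised at 6 h that are no members the shares were 98.0% and 96.4%. The rule used these means, so the counts of members are a description. The largest later difference from 0 h belonged to 12 h in 46 members, to 24 h in 9, to 48 h in 7 and to 120 h in 8. Just 12 members stayed within 0.25 of the 0 h level at all 4 later times.

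Separation between libraries was wide for the members. In 69 of the 70 the lowest library of 6 h was above all 15 libraries of the other times, which was so for 17.2% of the 11404 transcripts. The rule used these values, so nothing is read from that count. The exception was f3p60_441_37233, which had 18.8, 16.4 and 11.9 FPKM at 6 h and 1.76, 16.5 and 4.68 FPKM at 120 h, the widest spread of any member within a time. Among the 3 libraries of 6 h, replicate 1 was the highest in 23 members, replicate 2 in 22 and replicate 3 in 25. The lowest was replicate 1 in 30 members, replicate 2 in 24 and replicate 3 in 16. These values too were used by the rule, so the counts are a description. Measured by 1 library of 6 h alone, the median change was 1.14, 1.19 and 1.16 with replicates 1, 2 and 3.

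**Figure D4:**
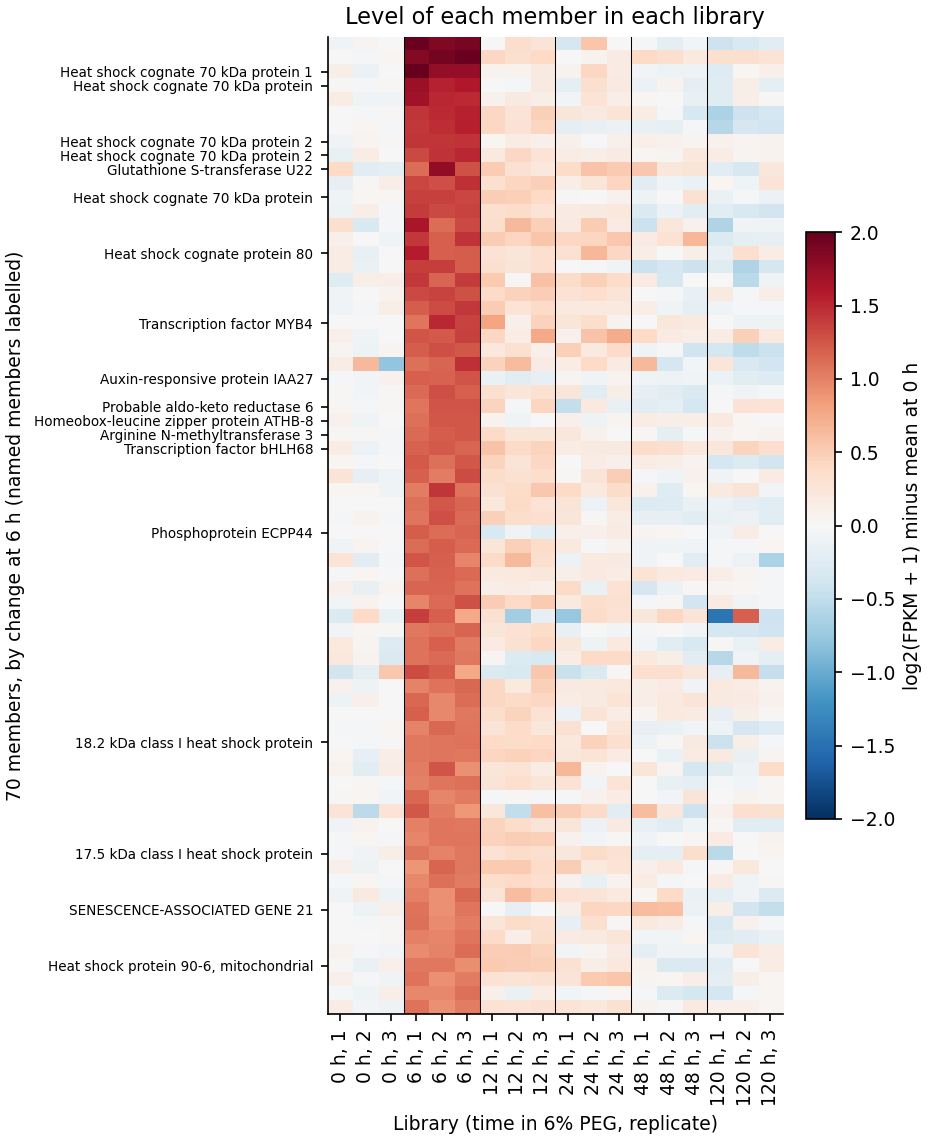
Level of the 70 members (rows, ordered by change at 6 h, named ones labelled) in the 18 libraries (columns, by time in PEG and replicate), as log2(FPKM + 1) minus the mean at 0 h, with colours capped at 2. The 3 columns of 6 h are red in all rows, 12 h is pale red in most, and the strongest single departure outside 6 h is f3p60_441_37233 at 120 h.

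Values near the limits show how the set was bounded. Just inside the limit of 1 at 6 h were f2p60_853_31743, f3p60_1118_10172 and f2p42_645_34659, with changes of 1.00, 1.01 and 1.02. Just outside it were f5p60_1018_29829, f2p60_513_36347 and f2p60_1442_7546, with 0.999, 0.996 and 0.994. At the limit of 0.5 for later times, f2p57_1931_4683 with 0.496, heat shock protein 90-6 with 0.496 and glutathione S-transferase U22 with 0.491 were the last inside. The first outside were f2p44_842_31939, f4p60_1506_7089 and f2p60_968_11356, with 0.501, 0.504 and 0.505. No gap divides the members from their neighbours at either limit.

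Rises at 6 h only, as the rule defines them, were a small share of the 6 h response. Of the 812 transcripts at least 1 higher at 6 h, 459 (56.5%) were also at least 1 higher at 12 h and 240 (29.6%) were higher there by 0.5 to 1. At 12 h 109 (13.4%) were within 0.5 of 0 h, and 39 of those left that range again at a later time, which leaves the 70 members, 8.62% of the 812. Whatever their change at 12 h, 214 (26.4%) of the 812 were within 0.5 of 0 h at 24, 48 and 120 h. When the same rule was turned to a single fall, it gave 48 of the 627 transcripts lower at 6 h, or 7.66%. With another time as the single changed one, it gave 14 raised and 10 lowered transcripts for 12 h. For 24 h these counts were 5 and 2, for 48 h 0 and 0, and for 120 h 2 and 8. The sampled times are not evenly spaced and 6 h and 120 h have 1 neighbour each among the treated times, so these counts are not on equal terms.

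**Figure D5:**
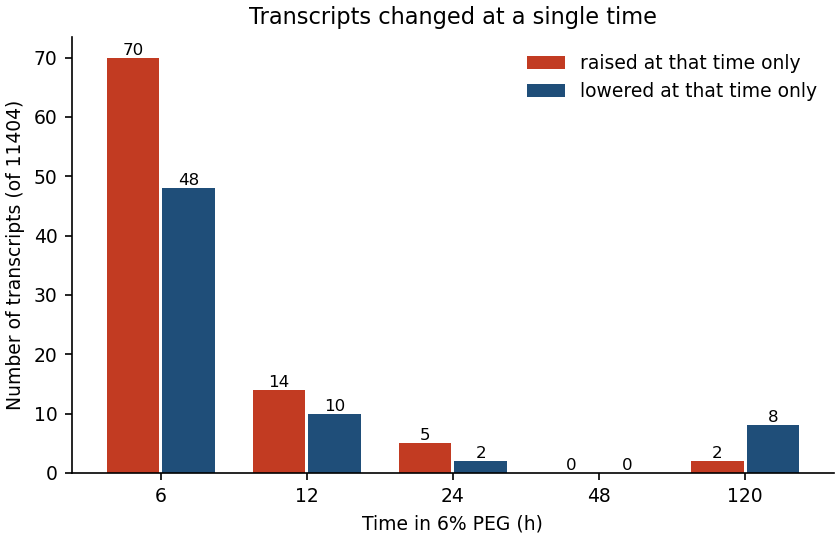
Number of transcripts, of 11404, that differed from 0 h by at least 1 (log2 scale) at 1 time only and by less than 0.5 at the 4 others, by time in PEG (h), with red bars for raised and blue bars for lowered. The bars of 6 h, 70 and 48, are the tallest and those of 48 h are 0.

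Members resembled other transcripts in their level before PEG. Their median FPKM at 0 h was 33.6, beside 33.4 over the 11404 transcripts and 18.7 over the 742 transcripts raised at 6 h that are no members. Their median length was 1107 bases, beside 1394 and 1075 bases in the same order. In length 28 members were under 1000 bases and 17 had 2000 or more. Levels at 0 h were under 5 FPKM in 6 members and at least 100 FPKM in 12.

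Simple sequence repeats were the only member sequence at hand, and they are shown to identify the transcripts that carry them. The repeat table was read in part, and 5 members were found in it. Capitals mark the first repeat unit.
f2p26_4002_187: CTTcttcttcttcttctt
f2p56_1148_9746: AGAagaagaagaagaaga
f2p60_2007_4254: GAGgaggaggaggaggaggaggaggag
f2p60_737_13977: AGagagagagagagagagagag
The fifth, f4p60_2415_20599, holds the unit GA 21 times. Among these, f2p60_737_13977 had 151, 155 and 147 FPKM at 6 h, against 57.2, 59.7 and 63.2 FPKM at 0 h and f2p60_2007_4254 had 51.04, 59.2 and 53.5 FPKM at 6 h, against 23.1, 24.9 and 23.2 FPKM at 0 h, and neither has an annotation here.

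Markers of the tissue moved at 6 h too. The 6 transcripts for high-affinity nitrate transporter 2.1 and ammonium transporter 1, which mark roots, summed to 471 to 485 FPKM at 6 h, against 1420 to 1483 FPKM at 0 h, and none was at 0 in any library. The 22 transcripts for photosystem and chlorophyll-binding proteins, which mark green tissue, were above 0 in all libraries except for 1 transcript, chlorophyll a-b binding protein CP29.1 (f2p60_752_33135), listed at 0 in 1 library. They summed to 1217 to 1319 FPKM at 6 h, against 2839 to 2948 FPKM at 0 h. By limma 12 of the 22 fell at 6 h and none rose, beside 5.34% lower and 7.00% higher over all transcripts tested. At 12 h the sums were 285 to 315 FPKM for the root list and 2061 to 2135 FPKM for the green tissue list, and at 120 h 1084 to 1531 FPKM and 4120 to 5320 FPKM. The green tissue sum was thus lowest at 6 h, when the members were highest, and its part in their levels was not tested. The FPKM of a library added up to 1067374 to 1159874, and 865 to 1016 transcripts were listed at 0.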

How the data were processed

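The authors sequenced RNA of 18 root samples as paired-end reads, mapped them to their own PacBio transcripts and deposited 1 table of FPKM. RSEM 1.2.31 and HTSeq 0.6.0 are named in the submitters' processing notes. Fragment counts and effective lengths were not used here, so depth is unknown and precision is given by the spread between replicates. Columns carry codes, read as 0 h for controls and as the treated times in numbered order with the last digit as replicate. The study's fold changes, labelled by time, are close to the changes here for some transcripts, such as glutathione S-transferase L3 (f3p60_1525_6924). For others they differ, as for protein SRC1 (f2p60_1369_7946), which the study gives as higher at 12 h than at 6 h. No value column was left unmapped (0).

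FPKM were log2 transformed after adding 1. The 12080 transcripts tested with limma 3.58.1 (R 4.3.3) had at least 1 FPKM in 3 or more libraries. The model held time as a factor of 6 levels, with trend and robust moderation and Benjamini-Hochberg adjustment over all of them. A call needs an adjusted p under 0.05 and a change of at least 1. Sums and counts were made in Python 3.11.15 with pandas 2.3.3 and numpy 2.4.6.

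Members and lists were chosen with earlier results of these data known. Names come from Swiss-Prot, NR and Pfam descriptions for 1057 transcripts, and the family lists were made by name. Named in the text are members with a protein name, the 5 with the largest change and the 5 with the highest level at 6 h. Also named are the 3 on either side of each limit and the 3 most correlated with the leading named member. Up to 4 called transcripts of each list were picked by size of change, but only some of them are named, with no rule for which. List transcripts that differed between 6 h and 12 h are named as well. The unnamed annotated members, the repeat carriers, the exception in library overlap, IAA13 and the mitochondrial HSP70 f2p60_626_34875 were added after their values were seen. So were the plasma membrane ATPase 4 transcript f2p9_3515_18575, the HSP70 list transcript f2p60_2197_21266 and the NDR1/HIN1-like transcripts. Alternatives were other pseudocounts, limits, filters and scalings, a replicate block, a fit without moderation options or on 6 libraries, and each library left out.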

Additional observations from a re-analysis of the deposited data

Results flagged for a closer look

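In the family lists, 13 transcripts that are no members differed between their changes at 6 h and at 12 h when the times were set against each other with limma, at an adjusted p under 0.05 and a difference of at least 1, with 3 libraries a time. They are given as values with no explanation, as the change at 6 h less the change at 12 h. Over all transcripts tested, 1.64% were called higher and 2.49% lower at 6 h than at 12 h. Higher at 6 h were NAC domain-containing protein 2 (f7p60_1432_25632) by 1.53 (adjusted p = 2.0e-10), late embryogenesis abundant protein Lea14-A (f2p59_732_13670) by 1.27 (adjusted p = 1.2e-07), probable glutathione S-transferase parC (f2p60_894_31262) by 1.07 (adjusted p = 0.0076), plasma membrane ATPase 4 (f3p60_597_35488) by 1.04 (adjusted p = 0.0093), protein SRC1 (f2p60_1369_7946) by 1.03 (adjusted p = 0.022) and protein SENESCENCE-ASSOCIATED GENE 21 (f2p60_765_32980) by 1.00 (adjusted p = 5.1e-05).

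Higher at 12 h were the 18 kDa seed maturation protein (f9p60_852_12520), with a difference of -4.47 (adjusted p = 9.5e-10), late embryogenesis abundant protein D-29 (f2p45_1593_6461) with -2.82 (adjusted p = 1.2e-08), and chaperone protein dnaJ 11 with -2.05 (adjusted p = 7.2e-09) in f3p60_810_32354 and -1.56 (adjusted p = 1.8e-07) in f2p60_820_32228. The same direction was found in NAC domain-containing protein 72 (f2p60_1192_9367) with -1.62 (adjusted p = 2.5e-04), a probable glutathione S-transferase (f11p60_1009_30005) with -1.32 (adjusted p = 1.5e-08) and ATHB-7 (f2p60_1403_7712) with -1.16 (adjusted p = 6.2e-05). The SENESCENCE-ASSOCIATED GENE 21 transcript named here is another one than the member of that name.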

How the results depend on the processing

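The number of transcripts raised at 6 h only follows from where its limits are set. It was 70 as reported, 207 with a 6 h change of at least 0.8, 26 with at least 1.2, 44 with later changes under 0.4, 113 with later changes under 0.6 and 42 with a length of at least 1000 bases. Under 6 other settings it stayed within 1.5 times, at 75 and 79 with 0.5 and 0.1 FPKM added, 59 with libraries scaled by median ratios, 71 with a common sum, 70 with no level minimum and 73 with no length minimum. Leaving out 1 library in turn gave 66 to 82, and the number shared with the 70 was lowest, at 56, without replicate 1 of 0 h. The change at 6 h of 26 named members kept its direction in all 572 recomputed values and moved by 1 SD or more in 5, all of them with less FPKM added, in f2p26_4002_187, MYB4 (f2p60_1066_29362) and arginine N-methyltransferase 3 (f2p23_2302_3270).

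The limma counts stayed within 1.5 times in all 48 alternatives. Leaving out 1 library gave 1480 to 1512 calls at 6 h against 0 h (1490 as reported), 1130 to 1141 at 12 h (1126), 483 to 509 between 6 h and 12 h (499) and 57 to 59 in the family lists at 6 h (58 of 78). With the replicate number as a block the counts were 1487, 1130, 497 and 58 in that order. Same-numbered libraries had a correlation of their deviations over 0.1 in 3 of 45 pairs, with a median of -0.01 and a lowest value of -0.28. Such correlations cannot show whether same-numbered libraries share a batch, and the main fit did not pair them. Depth could not be weighed, because fragment counts are unknown.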
